A study of Mus musculus with 10 samples.

Results

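Interleukins are secreted signalling proteins through which cells of the immune system, and epithelial cells around them, act on each other. This account covers the genes of interleukins and of their receptor chains in medullary thymic epithelial cells (mTECs) with and without the transcription factor Fezf2. The members are all genes whose symbol in the platform annotation is Il followed by a number, read from probe sets that the annotation ties to 1 gene, without Il25 and Il17rb. There were 71 such genes, on 113 probe sets, among 18193 genes with a probe set of their own on the array: 33 interleukins or interleukin antagonists, 35 receptor chains and 3 that are neither. Each gene was read from its probe set with the highest mean signal.

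RNA was measured on 10 Affymetrix arrays, 5 from wild-type (WT) mice and 5 from mice labelled Fezf2 KO, all 3 weeks old and on the C57BL/6 background. The cells of each sample had been sorted from thymus as lacking the leukocyte marker CD45 and carrying EpCAM and a high level of CD80, which marks mature mTECs. The labels do not give the knockout allele, the part of the gene removed, or whether the deletion was limited to the thymus. Whether each array is a mouse of its own is not stated, so a p-value here reflects the scatter among arrays, and part of that scatter may be technical. Arrays are named by the numbers in their titles, WT 1 to WT 5 and KO 6 to KO 10.

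mTECs display proteins of many organs to developing T cells, and they also take part in cytokine traffic in the thymus. IL-7 and IL-15 from thymic epithelium support developing lymphocytes, and both act through receptors that share the common gamma chain. The IL-1 family, which includes IL-18, IL-33 and the IL-36 cytokines, is typical of barrier epithelia and signals through receptors coupled to the adaptor MyD88. IL-4 and IL-13 are cytokines of type 2 immunity that share the receptor chain IL-4R alpha, and most other interleukin receptors likewise signal through JAK kinases and STAT factors.

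Values are linear signal intensities per probe set, as deposited. Differences are KO minus WT on a log2(signal + 16) scale, on which changes at low signal come out too small, and were tested with limma over all genes whose signal exceeded the 40th percentile of its array on at least 5 of the 10 arrays. A gene passed the test at a Benjamini-Hochberg adjusted p under 0.05 over these 14086 genes. The signal of a probe set also depends on its sequence, so signals are compared between arrays and not between genes. In RNA from a sorted population, fewer cells of a type and less RNA per cell cannot be told apart.

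Fezf2 itself was between 5054 and 5895 on the WT arrays and between 12.1 and 18.3 on the KO arrays, so it was low on every array labelled KO. Epcam was 7344 ± 232 in WT cells and 7695 ± 261 in KO cells (SD over 5 arrays each, as throughout), and Cd80 had a log2 change of -0.17 (adjusted p = 0.32). The leukocyte gene Ptprc, which encodes CD45, still gave 249.99 ± 31.6 in WT and 220.5 ± 45.1 in KO cells (log2 change -0.18, adjusted p = 0.33). WT 1 and KO 6 stood apart in control probe sets, with 18S rRNA signals of 3445 and 3762, where the others ranged from 765 to 1774. Their poly-A spike-in signals were 478 and 675, and those of the others 103 to 376. Where a call on an interleukin or receptor gene changed without these arrays, or with them as a block in the fit, the value is given beside it.

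Of the 71 members, 59 could be tested: 14 were lower in KO cells, 11 were higher and 34 did not pass. These are 42.4% of the members tested, beside 29.2% of all genes tested that were called, 16.2% lower and 13.0% higher. Among 30 interleukins 8 were lower and 6 higher, and among 28 receptor chains 6 were lower and 5 higher. The median log2 change was -0.04 over the interleukins and 0.01 over the receptor chains, against -0.03 over all genes tested. The KO signals lay entirely below the WT signals for 8 members and entirely above them for 8, beside 12.0% and 10.1% of all genes tested, or 22.1% in either direction. Il10rb was among the latter without passing the test. Il34, among the 11 called higher and the 8 entirely above, passed the filter through the KO arrays alone. Calls thus fell in both directions among ligands and among receptor chains.

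**Figure D1:**
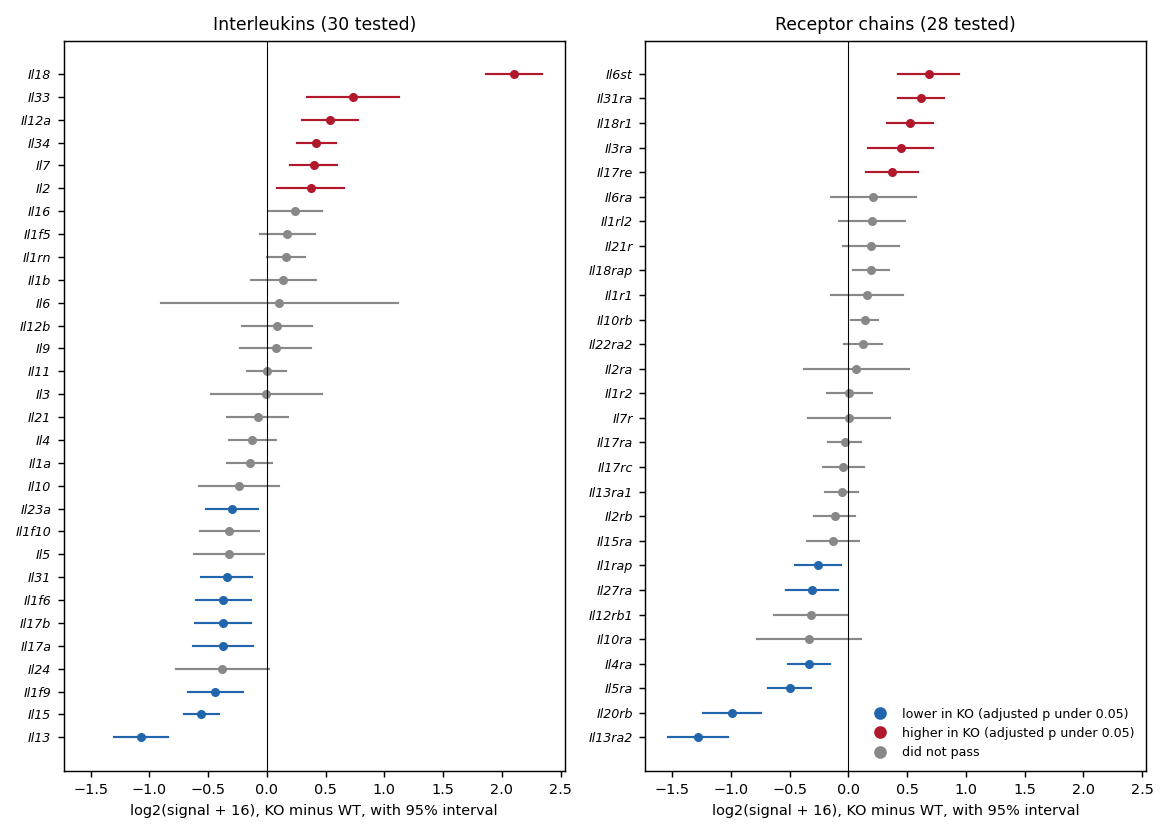
Difference between Fezf2 KO and WT cells on the log2(signal + 16) scale for each tested interleukin (left) and receptor chain (right), with the 95% interval from the limma fit over 5 WT and 5 KO arrays. Blue points were lower and red points higher at an adjusted p under 0.05, and grey points did not pass; Il18 lies alone at 2.10, while Il13ra2, Il13 and Il20rb are the lowest, at -1.28, -1.07 and -0.99.

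Il18 showed the largest change of any member. It encodes IL-18, a cytokine made as an inactive precursor, released by epithelial cells and macrophages, that drives interferon gamma production in lymphocytes. Its signals were 118, 119, 169, 132 and 135 on WT 1 to WT 5 and 655, 637, 761, 573 and 527 on KO 6 to KO 10. The lowest KO signal, on KO 10, was far above the highest WT signal, on WT 3. The mean was 135 ± 20.7 in WT and 631 ± 89.2 in KO cells, a log2 change of 2.10 (SE 0.11, adjusted p = 1.8e-07), or 4.29-fold. By size of rise it ranked 9 among the 14086 genes.

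The receptor of IL-18 is built from a binding chain, Il18r1, and a signalling chain, Il18rap. Il18r1 was 1176, 808, 936, 879 and 943 on the WT arrays and 1386, 1475, 1266, 1340.1 and 1338 on the KO arrays. Every KO signal was above every WT signal, and the log2 change was 0.52 (SE 0.09, adjusted p = 9.0e-04). Il18rap, the next gene along the chromosome, was 40.1 ± 3.02 in WT and 48.1 ± 5.24 in KO cells and did not pass (log2 change 0.19, 95% interval 0.04 to 0.34, adjusted p = 0.062). Il18bp, a secreted protein that binds IL-18 and blocks it, had a log2 change of -0.12 (95% interval -0.32 to 0.07, adjusted p = 0.32), from 197 ± 24.9 to 179 ± 14.5. With WT 1 and KO 6 as a block, Il18rap passed (adjusted p = 0.049), while without these arrays its change was 0.15 (adjusted p = 0.15).

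The promoter window of Il18 is shown because this gene rose most. It is the 250 bases before the RefSeq start of the gene, chr9:50554450-50554699 of GRCm38.p6 on the plus strand, with matches to the searched motifs in capitals. Both strands were searched for a STAT motif (TTCNNNGAA), an NF-kB motif, an IRF motif and a TATA motif (TATAAA), which can overlap one another, and a match is a description of letters and not a binding site.
Il18: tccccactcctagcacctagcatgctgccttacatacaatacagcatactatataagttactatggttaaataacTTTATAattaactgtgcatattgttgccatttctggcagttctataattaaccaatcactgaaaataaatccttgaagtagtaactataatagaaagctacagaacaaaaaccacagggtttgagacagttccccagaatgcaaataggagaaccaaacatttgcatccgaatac
The capitals mark a TATA motif on the opposite strand, from 175 to 170 bases before the start. Of 32851 windows of this length, 12.4% held the TATA motif, 7.02% the STAT motif, 1.21% the NF-kB motif and 2.98% the IRF motif. RefSeq windows were found for 56 of the 71 members, 69 windows in all, of which 10 held the TATA motif, 8 the STAT motif, 3 the NF-kB motif and 1 the IRF motif.

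Il33, the gene of the alarmin IL-33, rose as well. It was 136, 111, 124, 124 and 113 on the WT arrays and 384, 204, 181, 166 and 179.8 on the KO arrays. The groups did not overlap, with KO 6 far above the other KO arrays (log2 change 0.73, SE 0.18, adjusted p = 0.0089). Without KO 6 the change was 0.53, and without WT 1 and KO 6 it was 0.57 (adjusted p = 2.5e-04). Of the 5 tested endothelial markers 4 also rose, with log2 changes over the 5 from 0.38 to 0.79, but the groups overlapped in all 5. The summed signal of the list was 460 on WT 1 and 365 on WT 2, but 232 to 252 on WT 3 to WT 5. On the KO arrays that sum was 459 to 547. The part of these markers in the rise of Il33 was not tested.

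The IL-36 cytokines are epidermal members of the IL-1 family, and the genes of 2 of them fell, while Il1f8, the gene of IL-36 beta, was too low to test. Il1f9, which encodes IL-36 gamma, was 108, 74.9, 77.6, 89.1 and 84.3 on the WT arrays and 65.4, 61.3, 71.9, 46.0 and 55.3 on the KO arrays. All KO signals lay below the WT signals (log2 change -0.44, SE 0.11, adjusted p = 0.0098). Il1f6, which encodes IL-36 alpha, fell from 399.8 ± 70.6 to 303 ± 26.8 (log2 change -0.37, adjusted p = 0.022), with KO 8 above WT 3 and WT 4. Il1rap, the accessory chain shared by the receptors of IL-1, IL-33 and IL-36, was 61.7 ± 10.7 in WT and 48.4 ± 2.26 in KO cells (log2 change -0.26, adjusted p = 0.048). That call was lost on leaving out any of WT 1, WT 4, WT 5 or KO 6 to KO 10, with changes from -0.28 to -0.21 and adjusted p from 0.064 to 0.11. It was also lost with quantile normalization, median centring or no filter, and without WT 1 and KO 6 together (-0.21, adjusted p = 0.12).

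The other tested genes of the IL-1 family did not pass. Il1f5, the IL-36 receptor antagonist, was 251 ± 34.7 in WT and 285 ± 40.3 in KO cells, and Il1rl2, the binding chain of the IL-36 receptor, 501 ± 96.0 and 574 ± 75.4. Il1f10, which encodes IL-38, had a log2 change of -0.32 (95% interval -0.57 to -0.07, adjusted p = 0.054). The antagonist Il1rn was 631 ± 56.9 in WT and 708 ± 50.6 in KO cells, and its log2 change of 0.16 had a 95% interval that began just above 0 and ended at 0.33 (adjusted p = 0.12). Il1a, Il1b, the IL-1 receptor Il1r1 and the decoy receptor Il1r2 had changes of -0.15, 0.14, 0.16 and 0.01, with adjusted p between 0.24 and 0.96. Il1r2, one of the receptor chains with the highest WT signal, was 906 ± 111 in WT and 908 ± 77.8 in KO cells (95% interval -0.19 to 0.20). Without WT 1 and KO 6, Il1f5 passed with 0.30 (adjusted p = 0.037) and Il1a with -0.25 (adjusted p = 0.021). With these arrays as a block, Il1f10 passed (adjusted p = 0.036). Over all tested ligands and receptors of the IL-1 family, 3 of 15 were lower and 3 higher, with a median of 0.16. That is 40% called, beside the 29.2% of all genes. The cornified cell markers, epidermal genes, were divided too, with 2 of 8 lower and 4 higher, and their summed signal lay between 8822 and 13874 in WT and between 13876 and 17687.5 in KO cells. Their part in the changes of IL-18 and IL-36 genes was not tested.

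IL-13 and its decoy receptor were the pair that fell most. Il13 was 923, 642, 672, 794 and 734 on the WT arrays and 313, 341, 371, 409 and 311 on the KO arrays. Il13ra2, a high-affinity receptor for IL-13 that mainly acts as a decoy, was 499.6, 358, 331, 399 and 480.3 on the WT arrays and 144, 182, 141, 175 and 156 on the KO arrays. In both genes every KO signal was below every WT signal. The log2 change was -1.07 for Il13 (SE 0.11, adjusted p = 1.7e-05) and -1.28 for Il13ra2 (SE 0.12, adjusted p = 9.2e-06), a fall to 46.4% and 38.6% of the WT mean signal. Without WT 1 and KO 6 the changes were -0.96 and -1.18.

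The signalling receptor for IL-4 and IL-13 changed less. Il4ra, the shared chain, fell from 536 ± 55.8 to 419.8 ± 33.9 without overlap of the groups (log2 change -0.34, SE 0.08, adjusted p = 0.0083), but its 2 weaker probe sets gave -0.06 and -0.01, and the call was lost when all its probe sets were averaged. Il13ra1, its partner in the IL-13 receptor, was 348 ± 27.2 in WT and 333 ± 10.5 in KO cells (95% interval -0.20 to 0.09). Il4, which lies next to Il13 on the chromosome, was 128 ± 12.7 in WT and 117 ± 14.3 in KO cells, with a log2 change of -0.12 (95% interval -0.32 to 0.08, adjusted p = 0.34). The neighbour of Il13 thus had no called change. Mast cells are a known source of IL-13, and all 5 tested mast cell markers were lower in KO cells, with a summed signal over the list between 599 and 1045 in WT and between 375 and 469 in KO cells. Among them Kit, also expressed outside mast cells, had a log2 change of -0.88 and Fcer1a one of -0.86, while the mast cell protease gene Cpa3 was below the 40th percentile on every array. Their part in the fall of Il13 was not tested.

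The promoter windows of Il13 and Il13ra2, the genes that fell most, are shown because both carry a TATA motif just before the start. They are chr11:53634703-53634952 and chrX:147429193-147429442 of GRCm38.p6, both on the minus strand, 250 bases each, written in the direction of the gene with TATA motifs of either strand in capitals.
Il13: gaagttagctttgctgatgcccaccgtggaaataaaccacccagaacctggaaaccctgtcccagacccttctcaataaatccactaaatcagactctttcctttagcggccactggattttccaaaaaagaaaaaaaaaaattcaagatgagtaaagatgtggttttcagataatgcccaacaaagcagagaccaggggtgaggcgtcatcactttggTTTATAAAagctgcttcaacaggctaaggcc
Il13ra2: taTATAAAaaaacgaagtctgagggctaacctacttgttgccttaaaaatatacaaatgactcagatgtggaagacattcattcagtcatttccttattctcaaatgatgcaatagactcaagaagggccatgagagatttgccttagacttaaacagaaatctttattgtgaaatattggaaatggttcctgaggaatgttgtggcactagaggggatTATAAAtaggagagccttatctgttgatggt
On the strand of the gene the motif lies from 29 to 24 bases before the start of Il13 and from 31 to 26 bases before that of Il13ra2. Il13 also holds the letters on the opposite strand at 31 to 26, which overlap, and Il13ra2 holds a further match at 248 to 243. Among the members, 3 of 9 windows of genes that fell, 4 of 13 of genes that rose and 3 of 35 of genes that did not pass held the motif. Over all windows of this length the share was 12.4%. A gene can have several windows, as Il33 does, and these matches lie anywhere in the window on either strand.

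Il20rb was the third member with a large fall. It encodes a receptor chain for IL-19, IL-20 and IL-24, cytokines of the IL-10 family that act on keratinocytes and other epithelial cells. Its signals were 431, 371, 267, 316 and 275 on the WT arrays and 150.2, 162, 158, 156 and 156 on the KO arrays. The KO arrays lay close together and entirely below the WT arrays (log2 change -0.99, SE 0.11, adjusted p = 5.0e-05), and without WT 1 and KO 6 the change was -0.89. Il24, a ligand of this chain, was 85.5 ± 14.8 in WT and 64.2 ± 24.0 in KO cells (95% interval -0.78 to 0.02, adjusted p = 0.14). Il10, the anti-inflammatory cytokine of this family, was 159.6 ± 33.3 and 134 ± 34.0 (adjusted p = 0.29). Its receptor chains differed in sign, Il10ra with a log2 change of -0.34 (adjusted p = 0.24) and Il10rb, from 609.9 ± 27.6 to 672 ± 23.4, with 0.14 (adjusted p = 0.078). A block term for WT 1 and KO 6 brought Il10ra past the threshold (adjusted p = 0.047). Il22ra2, a soluble decoy for IL-22, had one of 0.12 (adjusted p = 0.25).

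**Figure D2:**
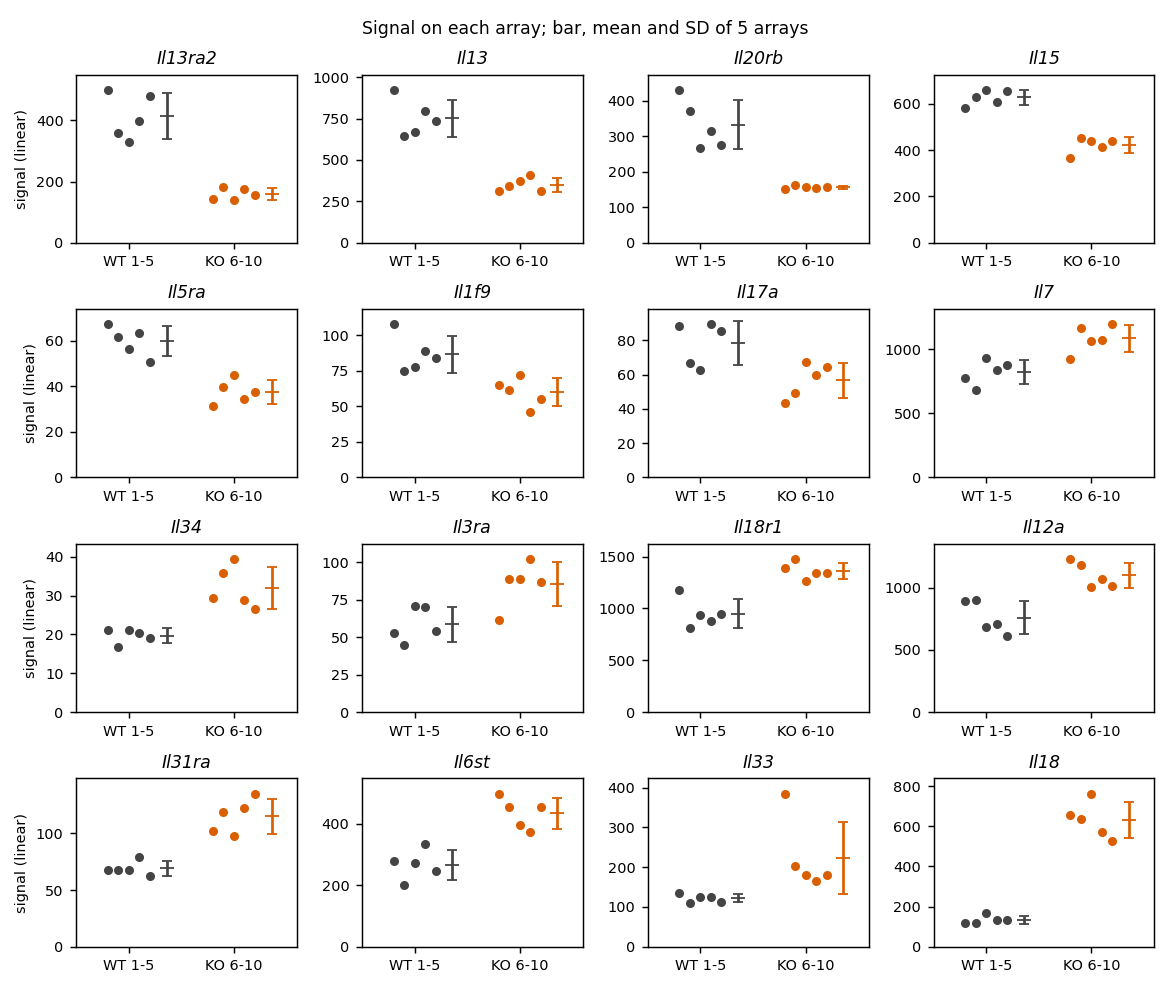
Linear signal on each array for the 16 members with the largest change among those that passed, ordered from the largest fall (Il13ra2) to the largest rise (Il18); bars give the mean and SD of 5 arrays and each axis starts at 0. The groups are apart in Il13ra2, Il13, Il20rb, Il15 and Il18, while in Il17a, Il7 and Il3ra they overlap, and KO 6 is the single high point of Il33.

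The lymphocyte growth factors of the common gamma chain family went opposite ways. Il15, which supports NK cells, gamma delta T cells and memory T cells, was 583, 627, 659.5, 608 and 656 on the WT arrays and 367, 451, 438, 413 and 438 on the KO arrays. All KO signals were below all WT signals (log2 change -0.56, SE 0.07, adjusted p = 8.6e-05). Il7, the main survival factor of early thymocytes, was 779.6, 682, 931, 839.8 and 877 on the WT arrays and 926, 1168, 1069, 1077 and 1195 on the KO arrays. Apart from KO 6, which lay just under WT 3, the KO signals were all higher (log2 change 0.40, SE 0.09, adjusted p = 0.0061), and a weaker probe set of Il7 gave 0.56. With each array left out in turn both calls held, with changes from -0.58 to -0.51 for Il15.

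Their receptor chains showed no called change. Il15ra, which presents IL-15 at the surface of the cell that makes it, was 711 ± 63.2 in WT and 652 ± 97.4 in KO cells (95% interval -0.36 to 0.09, adjusted p = 0.37), and KO 6 was the lowest array at 500.5. Il7r was 132 ± 24.8 and 135 ± 36.4 (95% interval -0.35 to 0.36, adjusted p = 0.99). Il2ra, Il2rb and Il21r, chains of the receptors of IL-2, IL-15 and IL-21, had log2 changes of 0.07, -0.12 and 0.19, with adjusted p from 0.22 to 0.84. Of the 8 tested markers of thymocytes and T cells 0 passed the limma test, and 0 had an unadjusted p under 0.05. Their summed signal lay between 661 and 934 in WT and between 471 and 1044 in KO cells.

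Il2, the growth factor of activated T cells, was low on all arrays. It was 25.5 ± 6.68 in WT and 37.8 ± 8.87 in KO cells, with overlap of the groups (log2 change 0.37, adjusted p = 0.049). The call was lost on leaving out any array but WT 3 or KO 10, with changes from 0.30 to 0.39 and adjusted p from 0.061 to 0.12, and also with an offset of 1, with no filter, with the mean of probe sets or without the trended robust variance. Without WT 1 and KO 6 the change was 0.39 (adjusted p = 0.079). Its neighbour Il21 had a log2 change of -0.08 (adjusted p = 0.66). Il9, a growth factor of mast cells and T cells, had one of 0.07 (adjusted p = 0.72).

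Receptor chains for IL-6 and IL-31 were higher in KO cells. Il6st encodes gp130, the signal transducer used by IL-6, IL-11, IL-27 and several related cytokines. It was 278, 200.2, 272, 335 and 247 on the WT arrays and 497, 453, 395, 372 and 453 on the KO arrays. Every KO signal exceeded every WT signal (log2 change 0.68, SE 0.12, adjusted p = 0.0011), and another kept probe set gave 0.42. Il31ra, the receptor chain for the itch cytokine IL-31 and the direct neighbour of Il6st on the chromosome, was 67.6, 68.0, 67.7, 79.4 and 62.4 on the WT arrays and 102, 118, 97.6, 122 and 135 on the KO arrays. These groups did not overlap either (log2 change 0.62, SE 0.09, adjusted p = 3.1e-04), and its other kept probe set gave 0.63.

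The window before the start of Il31ra, chr13:112580663-112580912 of GRCm38.p6 on the minus strand, is shown as a member that rose and whose window holds a STAT motif, in capitals, from 191 to 183 bases before the start.
Il31ra: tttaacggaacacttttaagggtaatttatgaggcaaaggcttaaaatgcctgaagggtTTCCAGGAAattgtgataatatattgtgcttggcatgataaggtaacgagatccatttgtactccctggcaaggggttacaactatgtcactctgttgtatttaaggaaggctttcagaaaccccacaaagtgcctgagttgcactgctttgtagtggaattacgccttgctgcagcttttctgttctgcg
The window of Il6st held none of the searched motifs. The STAT motif was found in 2 of 13 windows of members that rose, one of Il18r1 and that of Il31ra. That motif was also in 1 of 9 windows of members that fell and in 3 of 35 of members that did not pass. Over all windows its share was 7.02%.

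Among the tested interleukins that use these chains, Il31 was lower and the others had no call. Il31 fell from 38.3 ± 4.97 to 27.1 ± 5.92, with overlap (log2 change -0.34, adjusted p = 0.022), a call lost without WT 4 or WT 5 (-0.32 and -0.30, adjusted p = 0.053 to 0.058). Il6 was 568, 98.8, 115, 70.8 and 109.5 on the WT arrays and 289, 164, 115, 194 and 75.8 on the KO arrays. In each genotype the highest signal was on the array that stood apart in control signals, WT 1 or KO 6, and the 95% interval of the log2 change, -0.90 to 1.12, spans both directions. Il6ra, the binding chain of IL-6, was 132 ± 26.2 in WT and 156 ± 42.5 in KO cells (adjusted p = 0.38), and Il11 was 26.5 ± 4.06 and 26.4 ± 3.15. Other genes of this group, picked here after their values were seen, stand in the list of partner cytokines and receptors. Clcf1, a cytokine that signals through gp130, rose from 33.3 ± 6.03 to 49.9 ± 5.65 without overlap (log2 change 0.42, adjusted p = 0.0053). Osmr, the partner of Il31ra, rose as well, with a log2 change of 0.46 (adjusted p = 0.0079). It was 379 and 391 on WT 1 and WT 2 but 519 to 573 on WT 3 to WT 5. With array weights its change was 0.34 (adjusted p = 0.0055). Lifr, another partner of gp130, was 419 and 458 on WT 1 and WT 2 but 1051 to 1109 on WT 3 to WT 5, and 1127 to 1447 on the KO arrays. Its log2 change of 0.80 (adjusted p = 0.038) was 0.59 without WT 1 and KO 6 (adjusted p = 0.11). The Lifr call was also lost without WT 1, WT 2, KO 6, KO 7, KO 8 or KO 10 (adjusted p from 0.070 to 0.089) and with array weights. Lif, Ctf1 and Cntfr of the same list did not pass, with log2 changes of -0.13, 0.08 and 0.10 (adjusted p = 0.44, 0.50 and 0.23). Osm was too low to test.

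**Figure D3:**
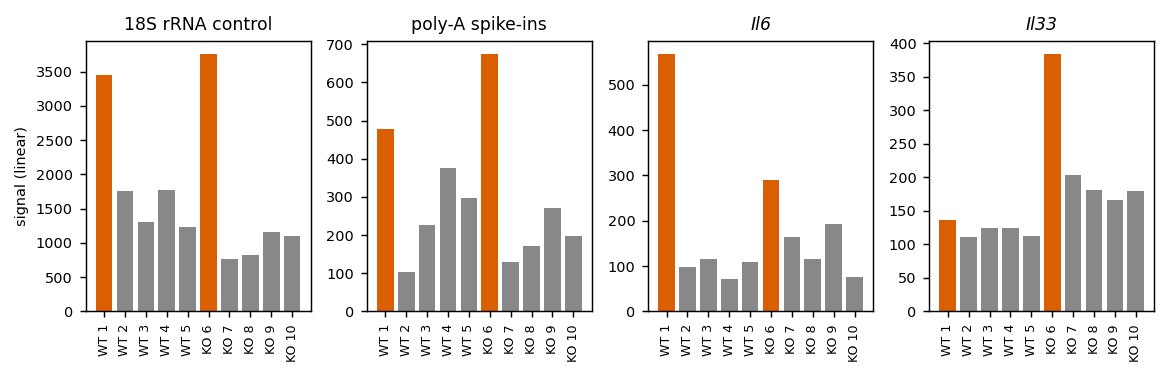
Linear signals of the 18S rRNA control probe sets, the poly-A spike-in probe sets, Il6 and Il33 on each of the 10 arrays, with WT 1 and KO 6 in orange. These arrays are the highest of their genotype in all 4 panels, and Il6 reaches 568 on WT 1 against at most 115 on the other WT arrays.

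The subunits of the IL-12 family were split. Members of this family are pairs of chains: IL-12 is built from Il12a and Il12b, IL-23 from Il23a and Il12b, and IL-27 contains the Ebi3 chain. Il12a was 891, 901, 684, 706 and 611 on the WT arrays and 1229, 1179, 1007, 1068 and 1010.3 on the KO arrays. It was higher on every KO array than on any WT array (log2 change 0.54, SE 0.11, adjusted p = 0.0029). Il23a was 1693, 1713, 1234, 1257 and 1244 on the WT arrays and 1150.0, 1112, 1087, 1248 and 1132 on the KO arrays. WT 1 and WT 2 stood above the rest, KO 9 overlapped the WT arrays, and the log2 change was -0.30 (SE 0.10, adjusted p = 0.046). That call was lost on leaving out WT 1, WT 2, KO 6, KO 7, KO 8 or KO 10, with changes from -0.30 to -0.23 and adjusted p from 0.060 to 0.10. It was also lost with median centring, no filter, another variance model or array weights, and without WT 1 and KO 6 together (-0.24, adjusted p = 0.10).

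The chains paired with these subunits gave no call in the same direction as Il12a. Il12b, the chain common to IL-12 and IL-23, was 76.9 ± 10.6 in WT and 83.9 ± 22.7 in KO cells (95% interval -0.21 to 0.38, adjusted p = 0.68). Ebi3 was 1029, 954, 1325, 1287 and 1035 on the WT arrays and 454, 649, 747, 614 and 519 on the KO arrays, without overlap (log2 change -0.91, SE 0.13, adjusted p = 3.1e-04). Il27ra, the specific chain of the IL-27 receptor, fell from 54.8 ± 3.87 to 41.6 ± 8.65 (log2 change -0.31, adjusted p = 0.035), without overlap. Its call was lost without WT 2, WT 3, WT 4, WT 5, KO 7 or KO 8, with changes from -0.32 to -0.28 and adjusted p from 0.056 to 0.082. Il12rb1 was 33.6 ± 11.5 in WT and 22.9 ± 2.76 in KO cells (adjusted p = 0.12).

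**Figure D4:**
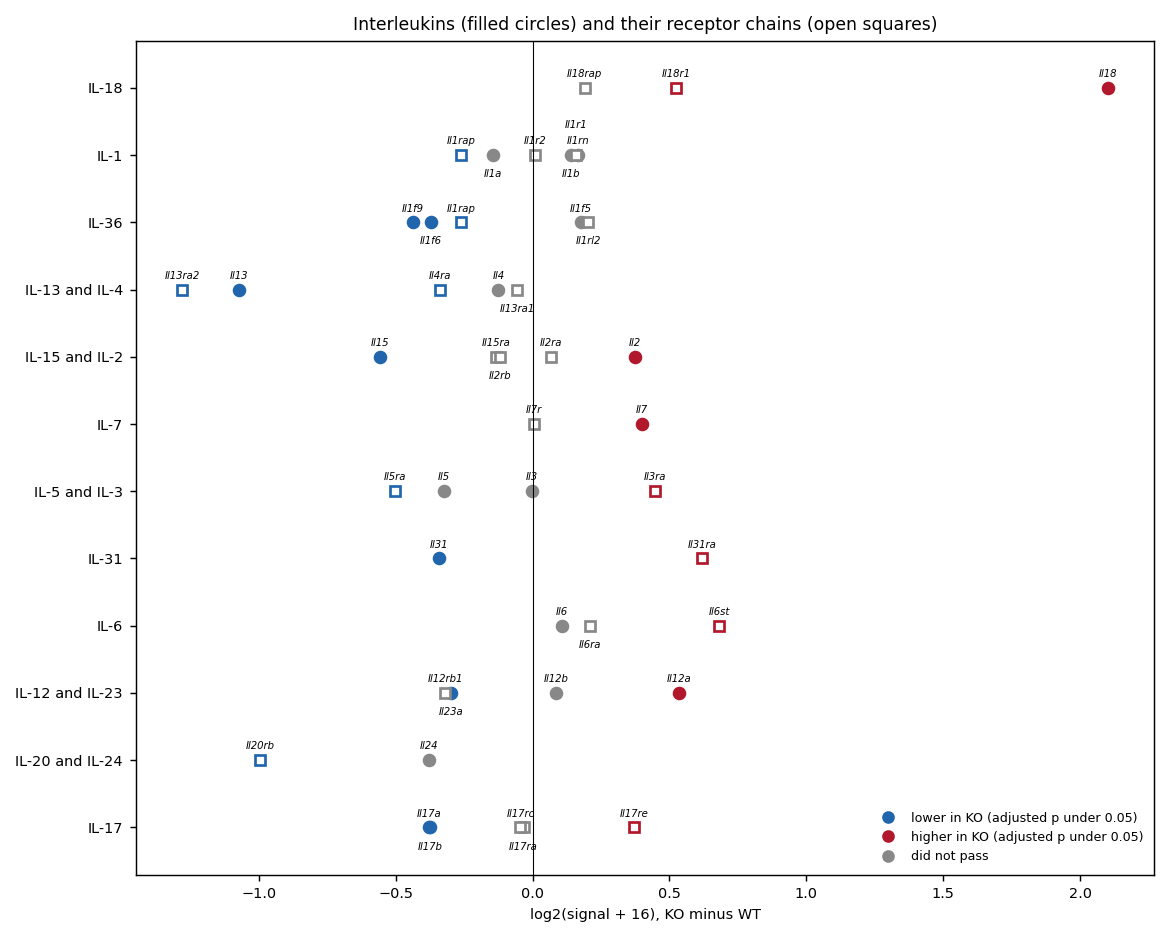
Difference between KO and WT cells on the log2(signal + 16) scale for tested interleukins (filled circles) and receptor chains (open squares), by receptor system; blue was lower, red higher and grey did not pass at an adjusted p under 0.05. Il18 and Il18r1 lie on the right and Il13 and Il13ra2 on the left, while in the IL-31 system the ligand is at -0.34 and the receptor chain at 0.62.

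IL-17 cytokines act on epithelial cells through receptors that contain Il17ra. Il17a, the signature cytokine of Th17 cells, was 88.2, 66.9, 62.4, 89.3 and 85.5 on the WT arrays and 43.2, 49.5, 67.3, 59.7 and 64.2 on the KO arrays. KO 8 lay above WT 2 and KO 10 above WT 3, and the log2 change was -0.38 (adjusted p = 0.030). It was lost without WT 1, WT 4, WT 5, KO 6 or KO 7, with changes from -0.35 to -0.31 and adjusted p from 0.058 to 0.076. Il17b fell from 156 ± 15.7 to 118 ± 20.1 (log2 change -0.37, adjusted p = 0.021), a call lost without WT 2 or KO 8 at -0.33 each (adjusted p = 0.053 and 0.058), and both genes lost the call without WT 1 and KO 6 together (-0.27 and -0.30, adjusted p = 0.099 and 0.054). Il17re, the chain that binds IL-17C, rose from 559 ± 68.2 to 728 ± 86.4 with overlap only at KO 10 (log2 change 0.37, adjusted p = 0.016), and its other kept probe sets gave 0.34 and 0.21. The call on Il17re rests on a probe set of shared sequence and was lost when such probe sets were left out. Il17ra and Il17rc, the widely expressed chains, were close in both groups, with log2 changes of -0.03 (95% interval -0.17 to 0.11) and -0.04 (95% interval -0.22 to 0.13).

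The receptors of IL-5 and IL-3, cytokines of eosinophils, basophils and mast cells, moved apart. Il5ra was 67.2, 61.6, 56.4, 63.5 and 50.7 on the WT arrays and 31.5, 39.6, 45.1, 34.4 and 37.7 on the KO arrays. The groups did not overlap (log2 change -0.50, SE 0.08, adjusted p = 8.1e-04). Il3ra was 52.7, 44.8, 71.1, 70.5 and 54.2 on the WT arrays and 61.4, 88.7, 89.2, 102 and 86.6 on the KO arrays. Only KO 6 lay within the WT range (log2 change 0.45, SE 0.13, adjusted p = 0.020), and the call was lost without WT 2 or KO 9 (0.38 and 0.39, adjusted p = 0.051 each). The ligands did not pass, Il5 at 117 ± 21.7 and 90.0 ± 17.1 (95% interval -0.62 to -0.03, adjusted p = 0.096) and Il3 with a 95% interval from -0.47 to 0.47 (adjusted p = 0.99). Il5 passed without WT 1 and KO 6 (-0.34, adjusted p = 0.031) and with them as a block (adjusted p = 0.018).

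Il34, a ligand of the macrophage growth factor receptor Csf1r, passed the filter through the KO arrays alone. It was 21.2, 16.8, 21.2, 20.3 and 18.9 on the WT arrays, all below the 40th percentile of their array, and 29.5, 35.8, 39.4, 28.7 and 26.4 on the KO arrays. With that percentile as the floor on the WT arrays it was at least 1.44-fold higher in KO cells (fitted log2 change 0.42, SE 0.08, adjusted p = 0.0015). Because Il34 entered the test only through the group where it was high, this p-value is not read as support. Csf1r itself fell from 617 ± 67.2 to 424 ± 36.7 (log2 change -0.52, adjusted p = 7.3e-04). Il16, a chemoattractant of CD4+ cells, was 41.1 ± 7.65 in WT and 51.4 ± 8.03 in KO cells (adjusted p = 0.11), and passed once the fit held a block for WT 1 and KO 6 (adjusted p = 0.047).

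The remaining 12 members were too low to test, with signals between 8.00 and 27.3 on all arrays. They were the ligands Il1f8 (IL-36 beta), Il17d and Il20, the receptor chains Il9r, Il12rb2, Il17rd, Il20ra, Il22ra1, Il1rapl1 and Il1rapl2, and the antisense transcript Il1bos and the amino acid oxidase gene Il4i1. Whether these genes are expressed is not decided by such signals.

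Interleukin genes often lie side by side, and the order of genes in the RefSeq table gave 17 pairs of neighbouring members, 14 of them with both genes tested. Il6st and Il31ra were both higher, and Il1f6 and Il1f9 were both lower. In 6 pairs 1 gene was called, as with Il13 beside Il4, Il18r1 beside Il18rap and Il4ra beside Il21r, and in 6 neither was. No pair had calls in opposite directions. Of all tested members 42.4% were called, and how often unrelated genes would give such pairs was not tested.

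Outside the members, 5 lists covered partner cytokines and receptors, JAK kinases and STAT factors, feedback inhibitors, receptor adaptors and IL-1 family processing genes. Of the 79 genes in these interleukin signalling lists, 67 were tested. Of these 11 were lower and 15 higher, or 38.8% in all, beside the 29.2% of all genes. Among 19 partner cytokines and receptors 3 were lower and 7 higher, or 52.6% in all, with a median of 0.08. Besides Ebi3 and Csf1r, the growth factor receptor chain Csf2ra fell from 148 ± 4.24 to 107 ± 13.7 (log2 change -0.42, adjusted p = 0.0023). Csf2rb2, a mouse beta chain that serves IL-3, rose from 589 ± 27.7 to 781 ± 94.5 (log2 change 0.39, adjusted p = 0.0039). Csf2ra, the alpha chain of the GM-CSF receptor, was thus lower, and the IL-3 beta chain Csf2rb2 higher. Csf2rb, the other beta chain of the list, picked here after its values were seen, rose from 1347 ± 253 to 1817 ± 249. Its groups overlapped (log2 change 0.44, adjusted p = 0.029).

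Of 10 JAK kinases and STAT factors 1 was lower and 2 higher, with a median of -0.03. That is 30% called, beside the 29.2% of all genes. Stat4, the factor activated by IL-12, was 215, 184, 188, 214 and 163 on the WT arrays and 468, 406, 424, 341 and 307 on the KO arrays. All KO signals were above the WT signals (log2 change 0.95, SE 0.11, adjusted p = 7.2e-05). Stat5a, which acts downstream of common gamma chain cytokines, fell from 865 ± 115 to 615 ± 104 (log2 change -0.49, adjusted p = 0.012). Jak1 rose from 1033 ± 114 to 1194 ± 31.5 (log2 change 0.21, adjusted p = 0.047), a call lost without any single array but WT 4 or WT 5, with changes from 0.16 to 0.22 and adjusted p from 0.057 to 0.094. It was also lost with quantile normalization, no filter, the mean of probe sets, another variance model or array weights, and without WT 1 and KO 6 together (0.19, adjusted p = 0.091).

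The 15 feedback inhibitors had 2 lower and 3 higher, or 33.3% in all beside 29.2% of all genes, with a median of 0.05. Cish, a STAT5 target that inhibits cytokine receptors, fell from 919.9 ± 71.2 to 655 ± 60.3 (log2 change -0.48, adjusted p = 5.5e-04), and the phosphatase gene Ptpn6 from 713 ± 67.4 to 489.6 ± 60.7 (log2 change -0.53, adjusted p = 0.0010). Socs3, which inhibits gp130, and the phosphatase gene Ptpn2 rose by 0.26 each (adjusted p = 0.016 and 0.018). Of 13 adaptors of the IL-1 and IL-17 receptors 0 were lower by limma, also at an unadjusted p under 0.05, where 4 were higher. After adjustment 2 were higher, 15.4% of those tested, beside the 29.2% of all genes called. They were Tab1 and Tab2, which couple the receptors to the kinase TAK1, with changes of 0.70 and 0.38 (adjusted p = 6.3e-04 and 8.7e-04). Myd88 itself had a change of 0.16 (adjusted p = 0.14). In 1 of the 13 adaptors all KO signals lay below all WT signals, and in 2 all lay above, beside 12.0% and 10.1% of all genes.

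Among genes that process IL-1 family precursors 10 were tested. Of these 5 were lower and 1, Casp12, was higher, or 60% in all beside 29.2% of all genes, with a median of -0.32. Casp1, the protease that activates IL-18 and IL-1 beta, was 1752, 1438, 1450.3, 1353 and 1356 on the WT arrays and 977, 1055, 1129.8, 1027 and 1049 on the KO arrays. Casp4 fell from 1744 ± 211 to 1190.4 ± 25.6 and the pore-forming protein gene Gsdmd from 566 ± 43.2 to 369 ± 68.7. In these 3 genes all KO signals lay below the WT signals, with log2 changes of -0.48, -0.54 and -0.61 (adjusted p = 5.3e-04, 3.1e-04 and 0.0022). Naip5, a sensor of bacterial flagellin, had the largest fall, from 214 ± 27.0 to 93.0 ± 30.8 (log2 change -1.12, adjusted p = 8.1e-04), and the adaptor Pycard had a change of 0.22 (adjusted p = 0.22). Il18 thus rose in the cells in which Casp1 signal fell.

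**Figure D5:**
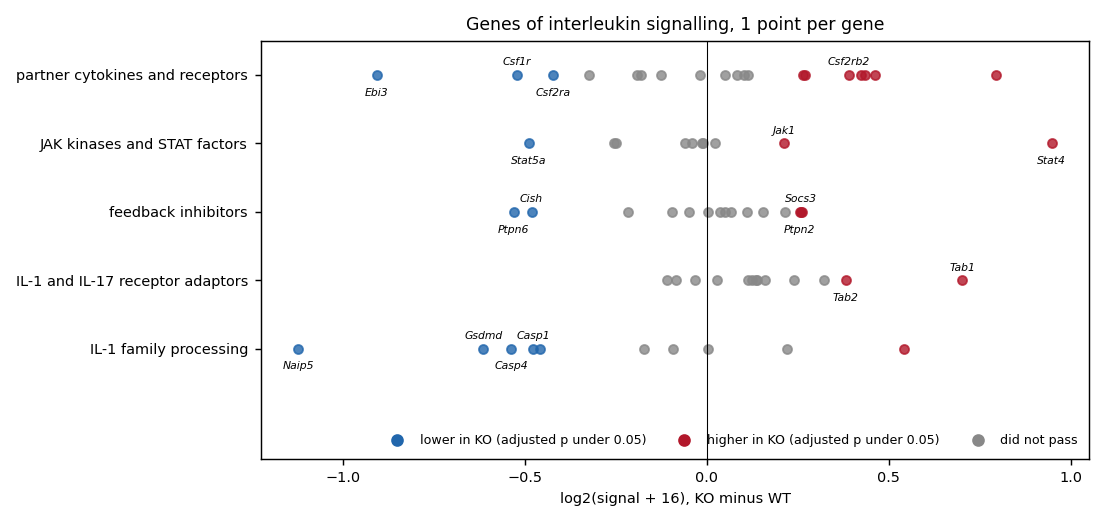
Difference between KO and WT cells on the log2(signal + 16) scale for 67 tested genes of 5 interleukin signalling lists, 1 point per gene, blue lower, red higher and grey not passed at an adjusted p under 0.05. Labelled genes are up to 4 per list with the smallest adjusted p; the processing genes have a median of -0.32 and reach -1.12 at Naip5, and Stat4 is farthest to the right at 0.95.

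Markers of other cells that could make or receive interleukins were read on the same arrays. Counts of all marker lists stand beside the 16.2% of all genes tested that were lower and the 13.0% that were higher. Of 12 tested myeloid markers 5 were lower and 3 higher, with a median log2 change of 0.12. The summed signal over the 13 on the array lay between 6904 and 7365 in WT and between 5274 and 6578 in KO cells. Such a sum weighs the markers of highest signal most. Fcer1g had the largest fall, with a log2 change of -1.35, and Mpeg1 the largest rise, with 2.62. Of 3 tested B cell markers 1 was lower and 1 higher (sums of 366 to 430 in WT and 302 to 329 in KO cells), and of 2 tested NK and innate lymphoid markers 1, Eomes, was lower (363 to 413 and 251 to 425), with Ncr1 and Klrk1 below the 40th percentile on every array. Of 7 fibroblast markers 1, Lum, was higher (1508 to 2234 and 1570 to 1964), and of 6 tested tuft cell markers 1, Sh2d6, was lower (1077 to 2467 and 1093 to 1872). The endothelial sum lay between 232 and 460.1 in WT and between 459 and 547 in KO cells. Among 6 genes of the sorted mTECs, Aire and Krt14 were lower and Krt5 was higher, with sums of 38995 to 45692 and 40971 to 43813. The marker genes named in this paragraph were picked after their values were seen. The part of these cells in the changes of the interleukin genes was not tested.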

How the data were processed

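Total RNA of 10 sorted mTEC samples was hybridised to Affymetrix mouse arrays of 45101 probe sets. The deposited values are linear signal intensities per probe set, made by the authors with MAS5, per the submitters' processing notes; no source used here states its scaling target or background settings. Present and absent calls were not used. Groups and array numbers come from the titles.

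From these intensities log2(signal + 16) was computed and no further scaling applied. Control probe sets and those tied to no gene or to several in the platform annotation were left out. A probe set stayed in if it was above its array's 40th percentile on at least 5 arrays, and each gene was read from its probe set with the highest mean, which left 14086 genes. KO was compared with WT in R 4.3.3 with limma 3.58.1 (lmFit, eBayes with trend and robust), with Benjamini-Hochberg adjustment over all genes and a threshold of 0.05. Intervals are 95% intervals of the fit, and errors are SDs. Precision is limited by the number of arrays. The procedure was also run on simulated data with independent errors for each gene and array. Such data hold no arrays that stand apart, so they cannot show how these affect the calls.

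Every member past the threshold is named, the 16 with the largest change with all arrays, and so are the 4 ligands and 4 receptor chains with the highest WT signal. In each signalling list the genes with the smallest adjusted p among those called are named, up to 4. Others are said to be picked later or serve as a partner of a named gene. Casp12, Pycard and Myd88, and the mast cell markers Kit, Fcer1a and Cpa3, were named outside these rules with their values known. Alternatives were other offsets (1 and 64), quantile normalization, median centring, no filter or the 60th percentile, other choices of probe set, another variance model, array weights, each array left out, and WT 1 and KO 6 left out or as a block. The members and all gene lists were chosen with earlier results of these data known. Promoter windows come from the RefSeq table of GRCm38.p6, and the order of neighbouring genes from the RefSeq gene table.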

Additional observations from a re-analysis of the deposited data

Results flagged for a closer look

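In 6 of 152 groups of 5 arrays, from 76 genes, the highest or lowest array lay farther from the others than Dixon's 95% criterion allows; chance gives such a value in about 1 in 20 groups. Il33 was 384.5 on KO 6 against 166.3 to 203.7 on the other KO arrays. Il6 was 568.5 on WT 1 against 70.76 to 114.7 on the other WT arrays. Casp1 was 1752 on WT 1, where the other WT arrays gave 1353 to 1450.0, and Il18bp was 153.5 on KO 6, where the other KO arrays gave 181.0 to 190.7. These 4 values lie on the 2 arrays with the highest 18S rRNA and spike-in signals, and the part of that difference in them was not tested. Il10rb was 712.6 on KO 10 against 656.2 to 671.3, and Jak1 was 1249 on KO 10 against 1169 to 1191.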

How the results depend on the processing

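Of the 25 members that passed, 17 passed with each array left out in turn and 15 under every alternative they entered. With arrays left out in turn, 6 to 9 interleukins were lower and 5 to 7 higher, 4 to 6 receptor chains lower and 4 to 6 higher, 11 to 13 signalling genes lower and 11 to 15 higher, and 1858 to 2412 of all genes lower and 1515 to 1872 higher. With the filter at the 60th percentile 3 receptor chains were lower in place of 6; fewer genes are tested there. The Il1r2 log2 change of 0.01 turned to -0.0037 with quantile normalization, -0.0658 with array weights, -0.0604 without WT 1, -0.0399 without KO 6 and -0.11 without both; with single arrays left out it ranged from -0.0604 to 0.0629. Without WT 1 and KO 6, 23 members passed, 20 of them among the 25, and Il1a, Il1f5 and Il5 were added. With these arrays as a block 30 passed, the 25 among them, and Il1f10, Il5, Il16, Il18rap and Il10ra were added. The labels do not say whether WT and KO samples were paired, so no paired analysis was made. Genes near the filter are measured close to background, where the offset shrinks differences.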
